A study of Homo sapiens with 4 samples.

Results

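The subject is a stretch of human chromosome 14 around BMP4 and the long non-coding RNA gene LINC02331, described by 10 genes of the 60656 gene IDs in the count tables, all of which passed the filter on low counts, as 19103 IDs did. BMP4 and LINC02331 were selected on their counts, which were much higher in DKO than in WT, so those differences are a description and carry no test. The 8 others, FERMT2, DDHD1, CDKN3, CNIH1, GMFB, CGRRF1, SAMD4A and GCH1, were listed by position, as flanking genes between chr14:52857273 and 54902826 (hg38). The assay was TTchem-seq, which sequences the RNA that cells make while fed the uridine analogue 4-thiouridine, and so reads ongoing transcription. The cells were HCT116, derived from a human colon cancer. The 2 DKO libraries come from cells that carry mAID, a tag through which auxin sends a protein to degradation, on both TOP2A alleles, that lack TOP2B (TOP2B -/-), and that received 500 µM auxin over 8 h. The 2 WT libraries have wildtype as their genotype label, while the treatment protocol names the TOP2A mAID line, with no auxin, beside the DKO line, so WT may carry the tag as well. No auxin is recorded for WT. Loss of both enzymes, auxin and differences between cell clones therefore cannot be told apart. Per the labels, both groups received palbociclib, at 2 µM over 28 h, to synchronize them in G1, and the 4-thiouridine pulse was 1 mM over 30 min in both. Nothing in the labels ties the replicates to separate cultures, so p-values measure the spread between these libraries, which may be technical.

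BMP4 is a secreted growth factor of the bone morphogenetic protein family, which shapes tissue patterning in the embryo and opposes proliferation of stem cells in the adult gut epithelium. The secreted dimer binds pairs of type I and type II receptor kinases, which phosphorylate SMAD1, SMAD5 and SMAD9, and these enter the nucleus with SMAD4 to switch on genes such as those of the ID family. Type II topoisomerases, the enzymes missing in DKO, pass one DNA duplex through another and so relieve the supercoils that transcription makes.

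Libraries were of even depth, at 51142867 to 53777749 counted reads. The quasi-likelihood test of edgeR, at a Benjamini-Hochberg adjusted p under 0.05, called 40.1% of the 19103 tested genes, 3632 of them higher and 4025 lower in DKO (4226 and 3328 with upper quartile factors). Of 11 colorectal epithelial markers 7 passed the count filter, with EPCAM, KRT8, KRT18, CDH1 and CDX2 at 10.6 to 166 CPM (counts relative to library size, scaled by TMM) in every library. GPA33 and LGALS4 stood at about 1 CPM or less, and KRT20, CDX1, VIL1 and CDH17 had at most 11 reads in any library. Of these 7, none was higher and CDH1 (log2 fold change -0.37), KRT8 (-0.21) and KRT18 (-0.19) were lower in DKO. KRT8 and KRT18 were not called without WT replicate 1. Nor were they called without a filter on low counts (edgeR adjusted p = 0.172 for KRT8 and 0.221 for KRT18). Lists of immune, fibroblast, endothelial and embryonic kidney markers held 23 genes, of which 7 were tested. None was higher, and CSF1R (-1.72) and PAX2 (-0.36) were lower in DKO, both not called without WT replicate 1. CSF1R also missed the threshold of edgeR without a filter on low counts (adjusted p = 0.0666). For comparison, 19.0% of all tested genes were higher and 21.1% lower. The part of these markers in the results was not tested. Summed levels of the tested markers were 0.0939 to 0.169 CPM in DKO and 0.366 to 0.509 CPM in WT for immune, 2.97 to 3.6 in DKO and 3.49 to 3.76 in WT for fibroblast, and 2.25 to 2.37 in DKO and 1.94 to 2.35 in WT for endothelial markers. The kidney markers PAX2 and PAX8 summed to 38.5 to 40.5 CPM in DKO and 48.9 to 50.1 CPM in WT. Of the 16 markers of these lists that did not pass the filter, the immune ones had at most 4, the fibroblast ones 6, the endothelial ones 8 and the kidney ones 10 reads in any library.

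LINC02331, a long intergenic non-coding RNA gene that spans 166 kb (chr14:53684997-53850826, hg38), had the largest difference of the locus. DKO libraries held 20855 and 22024 of its reads, against 639 and 508 in WT libraries. This is 392 and 413 CPM in DKO and 12.3 and 9.94 CPM in WT. Both DKO libraries thus lay far above both WT libraries. The log2 fold change of DKO over WT was 5.17, or 36.1-fold, and the 4 possible pairs of a DKO with a WT library differed by 4.99 to 5.37 on the log2 scale. By this change it ranked 1 among 445 lncRNA genes whose log2 CPM averaged 3 or more, and 2 among all tested lncRNA genes. Of all 2045 tested lncRNA genes, 0.782% were at least 4-fold higher. RefSeq places another lncRNA gene, LOC105370504, over 37.8 kb of its span. That gene has no ID of its own in the files, so reads shared with it cannot be separated.

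BMP4 lies 98.9 kb from LINC02331, on the minus strand (chr14:53949736-53956891, hg38). DKO libraries held 13917 and 13484 of its reads, against 2781 and 2671 in WT libraries. Its level was 261 and 253 CPM in DKO and 53.6 and 52.3 CPM in WT, again with no overlap of the groups. The log2 fold change was 2.28, or 4.85-fold, with library pairs between 2.24 and 2.32. BMP4 ranked 17 by log2 fold change among the 9096 protein-coding genes of that level. Across all tested genes 0.759% were at least 4-fold higher in DKO, as both BMP4 and LINC02331 were, and nothing is read from this because both were chosen for being higher. The protein-coding model LOC124903317 overlaps 2.71 kb of BMP4 and has no ID in the files. Because these are bulk samples, more cells transcribing BMP4 and more BMP4 RNA per cell cannot be told apart.

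The promoters of BMP4 are shown because the gene has several annotated starts and the count per gene does not say which of them was used. RefSeq (GRCh38.p14) windows of the 250 bases before a start were at hand for 6 of the 10 genes, FERMT2, DDHD1, BMP4, CDKN3, CGRRF1 and SAMD4A. The table holds 3 BMP4 windows, given here from the most upstream down, and none of them lies at the outer end of the annotated span. They are chr14:53955051-53955300, chr14:53954489-53954738 and chr14:53953396-53953645 on the minus strand. That of CDKN3, the flanking gene with the largest rise, is chr14:54396757-54397006 on the plus strand. Sequences run 5′ to 3′, and capitals mark matches, on either strand, to 6 short motifs. The GC box is written GGGCGG, and the box named for its letters is CCAAT. The TATA box was searched as TATAAA, and the E-box, bound by many helix-loop-helix factors, as CACGTG. The core bound by the aryl hydrocarbon receptor is GCGTG, and the site of the AP-1 factors is TGACTCA.
BMP4 start 1: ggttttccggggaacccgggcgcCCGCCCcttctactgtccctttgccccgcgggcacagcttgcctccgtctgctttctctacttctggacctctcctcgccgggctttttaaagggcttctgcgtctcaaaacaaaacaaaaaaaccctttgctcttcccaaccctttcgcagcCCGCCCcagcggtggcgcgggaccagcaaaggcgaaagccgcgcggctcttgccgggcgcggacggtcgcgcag
BMP4 start 2: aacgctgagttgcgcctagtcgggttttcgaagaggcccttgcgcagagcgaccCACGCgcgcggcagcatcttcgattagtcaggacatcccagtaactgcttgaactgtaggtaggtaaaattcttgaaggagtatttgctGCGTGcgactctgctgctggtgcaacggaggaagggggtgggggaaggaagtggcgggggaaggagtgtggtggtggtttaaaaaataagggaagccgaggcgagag
BMP4 start 3: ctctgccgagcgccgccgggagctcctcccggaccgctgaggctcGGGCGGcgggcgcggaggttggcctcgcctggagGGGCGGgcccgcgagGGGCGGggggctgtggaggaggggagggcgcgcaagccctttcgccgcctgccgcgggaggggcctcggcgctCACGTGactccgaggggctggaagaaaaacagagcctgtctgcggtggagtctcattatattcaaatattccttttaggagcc
CDKN3: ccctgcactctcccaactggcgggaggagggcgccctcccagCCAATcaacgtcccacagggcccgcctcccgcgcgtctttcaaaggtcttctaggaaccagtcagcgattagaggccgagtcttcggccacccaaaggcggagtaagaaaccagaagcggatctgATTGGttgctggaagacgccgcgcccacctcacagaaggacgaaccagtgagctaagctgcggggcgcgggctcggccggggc

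The window of BMP4 start 1 held 2 GC boxes, that of start 2 held 2 aryl hydrocarbon receptor cores, and that of start 3 held 3 GC boxes and 1 E-box. The CDKN3 window held 2 CCAAT boxes and none of the other motifs. Of 35116 promoter windows of the same length in the table, 42.6% held a GC box, 32.2% an aryl hydrocarbon receptor core, 32% a CCAAT box, 10.7% a TATA box, 6.34% the E-box and 4.2% the AP-1 site, counting both strands. No motif contains another. The GC content of these BMP4 windows was 63.6%, 56% and 70.4%, and that of CDKN3 64.4%, with a median of 58% over all windows. The matches describe letters, not sites of binding.

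The flanking genes differed from WT by far less, apart from CDKN3. By edgeR's quasi-likelihood test 7 of the 8 were higher in DKO and none lower, against 19.0% higher and 21.1% lower of all tested genes. Their median log2 fold change was 0.295, beside -0.002 over 504 tested genes of chromosome 14 and -0.006 over all tested genes. In those 7 both DKO libraries lay above both WT libraries, as in 33.0% of all tested genes. The flanking genes were chosen with results of these data known.

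**Figure D1:**
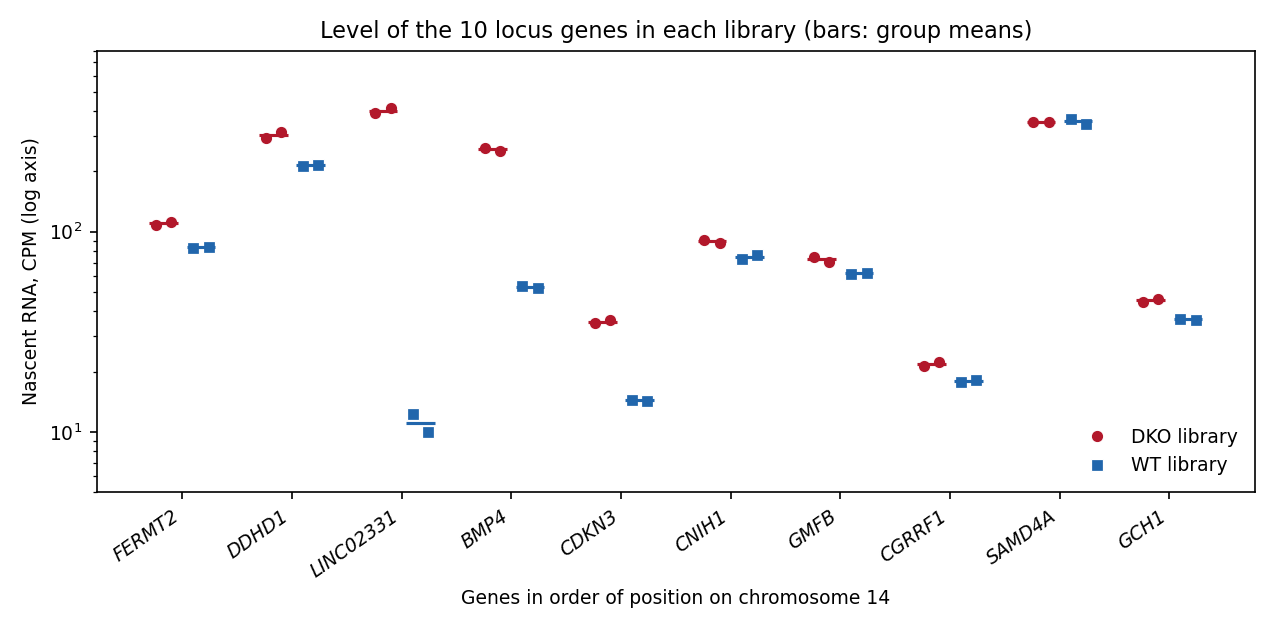
Level of each of the 10 genes in every library, in CPM on a log axis, with DKO libraries as red circles left of WT libraries as blue squares, and group means as bars; genes stand in order of position. LINC02331 and BMP4 show the widest gaps, CDKN3 a smaller one, and SAMD4A overlaps between the groups.

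CDKN3, which encodes a phosphatase that acts on the cyclin-dependent kinase CDK2, stood 440 kb from BMP4 and rose most among the flanking genes. It had 34.9 and 36.1 CPM in DKO, against 14.4 and 14.3 CPM in WT. The log2 fold change was 1.3 ± 0.07 (edgeR adjusted p = 5e-45), or 2.47-fold. On chromosome 14 it ranked 9 of 504 tested genes by log2 fold change. Its nearest neighbour, CNIH1, lies only 3.34 kb further on and changed much less. CNIH1, a cargo receptor for export from the endoplasmic reticulum, had 90.5 and 88.2 CPM in DKO and 73.2 and 76.8 CPM in WT, a log2 fold change of 0.25 ± 0.05 (edgeR adjusted p = 4.34e-06). Library pairs of DKO and WT differed by 1.27 to 1.33 (log2) for CDKN3 and by 0.2 to 0.31 for CNIH1, so the ranges of these adjacent genes did not meet.

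On the other side of LINC02331, DDHD1 and FERMT2 rose as well. DDHD1, a phospholipase of phosphatidic acid, ends 532 kb before LINC02331 begins. It had 294 and 313 CPM in DKO and 212 and 216 CPM in WT, a log2 fold change of 0.51 ± 0.05 (edgeR adjusted p = 1.9e-19). FERMT2, kindlin-2, an adaptor that activates integrins, had 108 and 112 CPM in DKO and 83 and 84.1 CPM in WT, a log2 fold change of 0.4 ± 0.05 (edgeR adjusted p = 2.37e-13). In both genes every DKO library was above every WT library. RefSeq places the lncRNA gene LOC105370500, which has no ID of its own here, over 73 kb of FERMT2, so shared reads cannot be separated. DDHD1-DT, a lncRNA gene beside the start of DDHD1, had 33 and 20 reads in DKO libraries and 22 and 24 in WT libraries, which overlap (log2 fold change 0.15 ± 0.31, edgeR adjusted p = 0.729). Its value turned to -0.25 without DKO replicate 1.

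Beyond CNIH1 the rises were small. GMFB, a regulator of branched actin, had 74.9 and 70.4 CPM in DKO and 61.6 and 62 CPM in WT, a log2 fold change of 0.23 ± 0.05 (edgeR adjusted p = 4.74e-05). CGRRF1, a RING finger protein, had 21.4 and 22.3 CPM in DKO and 17.8 and 18.2 CPM in WT (0.28 ± 0.07, edgeR adjusted p = 0.000477). GCH1, the first enzyme of tetrahydrobiopterin synthesis, had 44.7 and 45.8 CPM in DKO and 36.8 and 36.2 CPM in WT (0.31 ± 0.06, edgeR adjusted p = 9e-07). Between CGRRF1 and GCH1 lies SAMD4A, whose product is related to the translational repressor Smaug of Drosophila. SAMD4A is the longest of the 10 genes, at 228 kb. The lncRNA gene LOC112268133, which has no ID of its own here, overlaps 64.6 kb of that span. SAMD4A had 353 and 353 CPM in DKO and 366 and 345 CPM in WT, so the groups overlapped. It was not called (log2 fold change -0.01 ± 0.05, edgeR adjusted p = 0.885). The sign of that value turned with upper quartile factors (0.02) and without WT replicate 1 (0.03), and the pairs of libraries spanned -0.05 to 0.03. Without WT replicate 1 the calls of CNIH1 (adjusted p = 0.0755), GMFB (0.0977) and CGRRF1 (0.091) ended and 4 flanking genes stayed called, and without WT replicate 2 those of GMFB (0.07) and CGRRF1 (0.0552) ended and 5 stayed called. GMFB also missed the threshold without a filter on low counts (adjusted p = 0.0519).

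Set along the chromosome, the change did not fall off evenly with distance from BMP4. CDKN3, at 440.1 kb, rose by 1.3 (log2), while CNIH1, GMFB and CGRRF1, at 466.7 to 553 kb on the same side, rose by 0.23 to 0.28. SAMD4A, at 608.4 kb, was not called, while GCH1 (885.1 kb), DDHD1 (796.4 kb, on the other side) and FERMT2 (998.7 kb) were. GNPNAT1, an enzyme of amino sugar synthesis just outside the window on the FERMT2 side, was also called higher in DKO. It had 77.1 and 69.5 CPM in DKO and 65.4 and 67.5 in WT (log2 fold change 0.14 ± 0.05, edgeR adjusted p = 0.0169). WDHD1, a replication factor just outside on the GCH1 side, was lower in DKO, at 102 and 109 CPM in DKO and 122 and 124 CPM in WT (log2 fold change -0.22 ± 0.05, edgeR adjusted p = 2.74e-05).

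**Figure D2:**
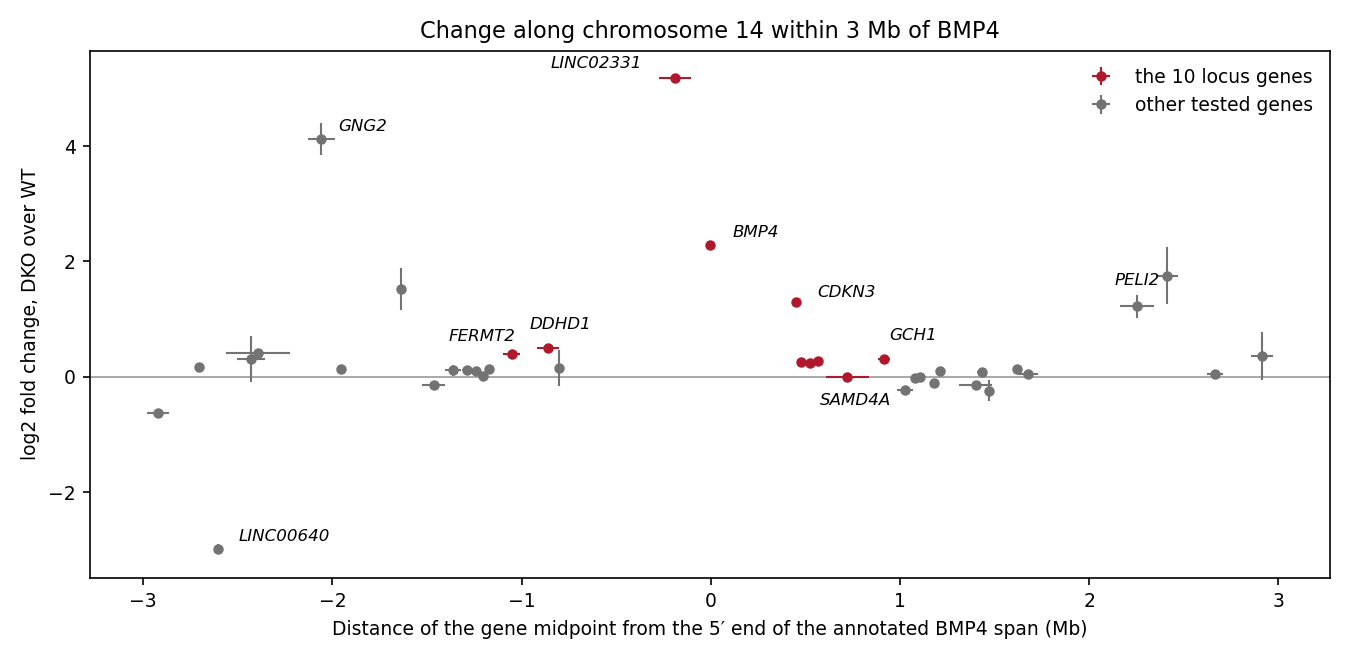
Log2 fold change of DKO over WT for tested genes within 3 Mb of BMP4 on chromosome 14, against the distance of each gene's midpoint from the 5′ end of the annotated BMP4 span in Mb; vertical bars are SE, horizontal bars the annotated span, red the 10 locus genes and grey the others. LINC02331 (5.17), BMP4 (2.28) and CDKN3 (1.3) stand above the other locus genes, and further out GNG2 (4.12), PTGER2 (1.52) and PELI2 (1.23) lie high and LINC00640 (-2.98) low.

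Outside the window the genes within 2 Mb were mixed. On the FERMT2 side 7 of 15 tested genes (46.7%) were called higher and 2 (13.3%) lower, against 19.0% and 21.1% of all tested genes. The median log2 fold change on that side was 0.116. On the GCH1 side 3 of 14 (21.4%) were higher and 2 (14.3%) lower, with a median of 0.047. Over both sides, the 3 called protein-coding genes with the largest absolute change were all weakly transcribed. GNG2 and PTGER2 lie on the FERMT2 side and PELI2 on the GCH1 side. GNG2, a G protein gamma subunit, had 124 and 133 reads in DKO libraries and 5 and 9 in WT libraries (log2 fold change 4.12 ± 0.28). PTGER2, a prostaglandin E2 receptor, had 25 and 32 reads in DKO libraries and 9 and 10 in WT libraries (1.52 ± 0.37), and PELI2, a ubiquitin ligase of innate immune signalling, had 103 and 96 in DKO and 42 and 40 in WT (1.23 ± 0.2). PTGER2 missed the threshold of edgeR without WT replicate 1 (adjusted p = 0.0878) and without WT replicate 2 (adjusted p = 0.0566). Another lncRNA gene on the FERMT2 side, LINC00640, went the other way, with 229 and 228 reads in DKO libraries and 1745 and 1751 in WT libraries (-2.98 ± 0.08), the lowest log2 fold change of the 504 genes. It was picked after its value was seen.

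**Figure D3:**
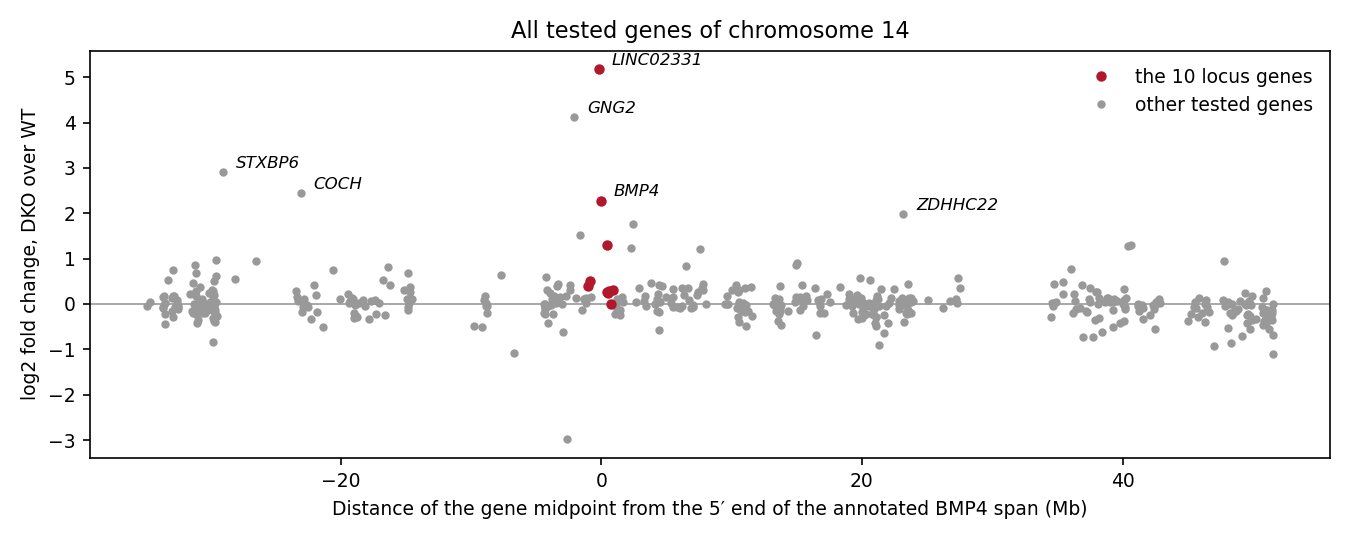
Log2 fold change of DKO over WT for the 504 tested genes of chromosome 14, against distance from the 5′ end of the annotated BMP4 span in Mb, with the locus genes in red and the others in grey. LINC02331 has the highest value of the chromosome and BMP4 ranks 5, after GNG2, STXBP6 and COCH.

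Levels can be set against each other only per length, here as CPM per kb of annotated span, with the limit that the counted feature, exon or gene body, is unknown. On that scale BMP4 had the highest level of the locus in both groups, at 35.9 ± 0.84 in DKO and 7.4 ± 0.13 in WT (SD, n = 2 each). In DKO it exceeded 99.5% of tested genes with a RefSeq span and in WT 96.9%. LINC02331 stood at 2.43 ± 0.091 CPM per kb in DKO and 0.0671 ± 0.01 in WT, above 84.1% of genes in DKO and above 19% in WT. The order in DKO was BMP4, then CNIH1 and GMFB, which overlapped at 5.02 ± 0.09 and 5.01 ± 0.22, then DDHD1, LINC02331, SAMD4A and CDKN3, of which the last pair overlapped, then FERMT2, and last GCH1 and CGRRF1, which overlapped. In WT the order was BMP4, GMFB and CNIH1 (overlapping), DDHD1, SAMD4A, FERMT2, then CDKN3, CGRRF1 and GCH1 (each overlapping the next), with LINC02331 far below. LINC02331 thus ranked 5 in DKO and 10 in WT, while CDKN3 ranked 7 in both. Without division by length LINC02331 was the higher of the pair in DKO, with 1.5 and 1.63 reads per BMP4 read, against 0.23 and 0.19 reads per BMP4 read in WT. Summed over the 10 genes the locus gave 1675 and 1707 CPM in DKO and 931 and 915 CPM in WT. The 8 flanking genes alone gave 1022 and 1041 CPM in DKO and 865 and 853 CPM in WT.

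The small non-member genes inside the window added few reads. MIR5580, a miRNA gene next to BMP4, had 6 and 5 reads in DKO and 1 in each WT library, and the pseudogene ATP5F1CP1 had 3 and 1 reads in DKO and 0 in both WT libraries. SAMD4A-AS1 had 1 read in each DKO library and 2 and 0 reads in WT. RPS3AP46, RNU6ATAC9P, MIR4308 and FDPSP3 had 0 reads in all 4 libraries. None of these passed the count filter.

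Neighbouring genes that are both strongly higher in DKO were rare. Among 15758 pairs of tested genes adjacent on a chromosome, 9 had both genes at least 4-fold higher, and LINC02331 with BMP4 is 1 of them. Of the 9, 2 had both genes at a log2 CPM averaging 3 or more, LINC02331 with BMP4 and NAV3 with SYT1 on chromosome 12. NAV3 had a log2 fold change of 2.77 and SYT1, a synaptic calcium sensor, 2.05. These counts describe a pair chosen for its size and test nothing.

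The protein-coding genes most like BMP4 were found by the Euclidean distance between log2 CPM values over the 4 libraries, each gene centred on its mean. With only 2 groups this measure mainly finds genes with a similar fold. The 5 nearest were EPB41L4A, SYK, GCNT4, EDNRA and SLC9A9, at distances of 0.111 to 0.199. SYK, a tyrosine kinase of immune receptor signalling, had 30.7 and 32.1 CPM in DKO and 6.67 and 5.91 CPM in WT. EDNRA, an endothelin receptor, had 13.6 and 13.2 CPM in DKO and 2.95 and 2.47 CPM in WT. The 5 nearest to LINC02331 were ZNF804A, LRMDA, ZC3H11B, ANO4 and ZNF182, at distances of 0.154 to 0.728. ZNF804A, a zinc finger gene, came closest with 169 and 178 CPM in DKO and 4.99 and 4.68 CPM in WT. ZC3H11B had 0 reads in both WT libraries. None of the 10 lies on chromosome 14.

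The genes of the BMP pathway were then read from the same fit, as the other parts of the signalling chain that BMP4 feeds. Over 5 lists without BMP4, 41 distinct genes were tested, 17 were higher and 5 lower in DKO, against 19.0% and 21.1% of all tested genes. Their median log2 fold change was 0.091. By list, 20% of the tested ligands, 50% of receptors, 33.3% of antagonists, 50% of SMADs and ligases and 50% of targets were higher. In the same order 40%, 0%, 11.1%, 0% and 16.7% were lower, and each list held only 5 to 12 tested genes. Over all 5 lists without the genes of chromosome 20, 17 of 38 distinct genes were higher and 2 lower (median 0.173). The genes left out, BMP7, GDF5 and ID1, were all called lower, so leaving them out could only raise the median. No share over all tested genes without chromosome 20 was taken, and nothing is read from this subset. The genes of chromosome 20 were lower as a whole, with 79.4% of 428 called lower and a median of -0.594. Without WT replicate 1 the count of higher genes was 9, and without WT replicate 2 it was 13.

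**Figure D4:**
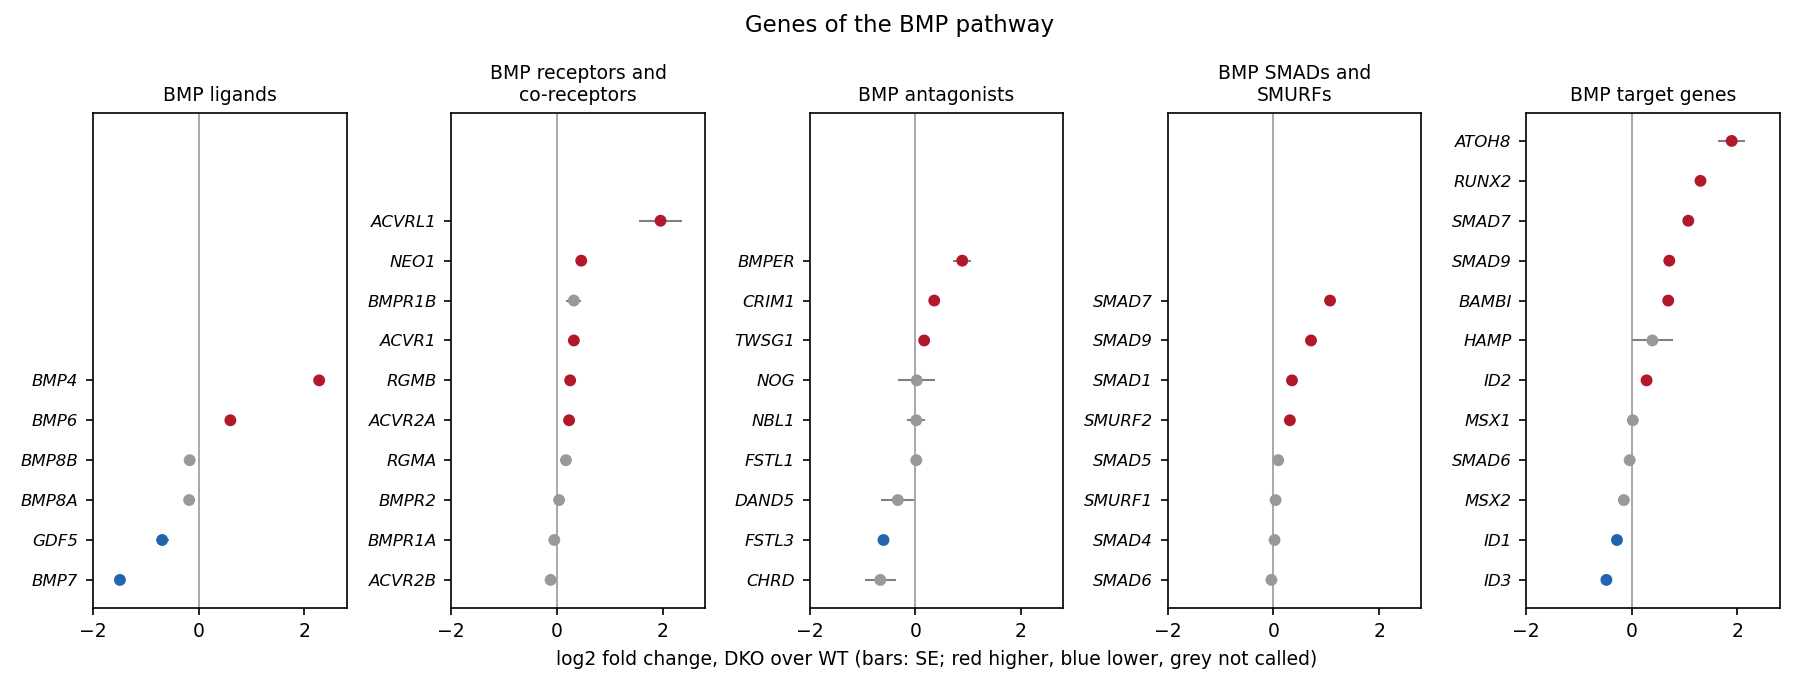
Log2 fold change of DKO over WT for tested genes of the 5 BMP lists, with SE as bars; red points were called higher, blue points lower and grey points not called. BMP4 (2.28) and BMP7 (-1.49) lie at opposite ends of the ligands, and ATOH8, RUNX2 and SMAD7 lead the targets.

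Among the ligands other than BMP4, 5 of 12 were tested, of which 1 was higher and 2 lower (median -0.178). BMP7 fell to 33.3 and 33.9 CPM in DKO, against 95.3 and 93.8 CPM in WT, a log2 fold change of -1.49 ± 0.05 (edgeR adjusted p = 3.15e-69). GDF5, a ligand of joint development, also fell, with 3.38 and 3.68 CPM in DKO and 5.65 and 5.76 CPM in WT (-0.69 ± 0.12). Both lie on chromosome 20. BMP6, a ligand best known from iron control in the liver, rose, with 12 and 13.4 CPM in DKO and 8.08 and 8.69 CPM in WT (0.6 ± 0.09, edgeR adjusted p = 1.68e-09, but 0.0512 without WT replicate 1). BMP8A and BMP8B were not called. BMP2, the closest relative of BMP4, had 0 reads in all 4 libraries, and no untested ligand had more than 3 reads in a library. Per kb of span, BMP4 exceeded every other tested ligand, with 35.9 CPM per kb in DKO and 7.4 in WT. That order depends on the division by span, since whether exons or gene bodies were counted is unknown. In plain CPM, BMP4 was above BMP7 in DKO (261 and 253 CPM) but below it in WT (53.6 and 52.3 CPM). The spans are 7.16 kb for BMP4 and 97.9 kb for BMP7. Per kb, BMP7 had 0.343 CPM in DKO and 0.966 in WT.

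Of 10 tested receptors and co-receptors 5 were higher and none lower (median 0.242). The type I receptor ACVR1 had 146 and 153 CPM in DKO and 120 in each WT library (0.32 ± 0.05, edgeR adjusted p = 1.47e-09). NEO1, a receptor that works with RGM co-receptors, had 167 and 180 CPM in DKO and 123 and 130 CPM in WT (0.46 ± 0.05). RGMB, 1 of those co-receptors, had a log2 fold change of 0.25 ± 0.05 and was not called without WT replicate 1 (edgeR adjusted p = 0.0974) or WT replicate 2 (0.0506). ACVRL1, a type I receptor of endothelial cells, had 0.563 and 0.506 CPM in DKO and 0.193 and 0.0783 CPM in WT, a rise (1.96 ± 0.4) that rests on few reads and missed the threshold of edgeR without a count filter (adjusted p = 0.0515) and without WT replicate 2 (adjusted p = 0.0543). DESeq2 gave it no adjusted p. The main BMP receptors BMPR1A (-0.05 ± 0.05) and BMPR2 (0.04 ± 0.05) were not called and their groups overlapped.

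Of 9 tested antagonists 3 were higher and 1 lower (median 0.017). BMPER, which binds BMPs outside the cell, had 2.4 and 2.29 CPM in DKO and 1.41 and 1.12 CPM in WT (0.89 ± 0.17). CRIM1, a membrane protein that tethers BMPs, had 442 and 439 CPM in DKO and 361 and 325 CPM in WT (0.36 ± 0.05). TWSG1, a modulator of BMP binding, had a log2 fold change of 0.17 ± 0.05 and was not called without WT replicate 1 (edgeR adjusted p = 0.141), without WT replicate 2 (0.0678) or without a count filter (0.0614). FSTL3, a binder of activins and BMPs, fell to 6.65 and 6.26 CPM in DKO, against 10.5 and 9.14 CPM in WT (-0.6 ± 0.1). Noggin (NOG) stood at 0.3 to 0.394 CPM in DKO and 0.27 to 0.411 CPM in WT, which overlap. The antagonists that did not pass the filter, GREM1 among them, had at most 9 reads in any library.

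Among the SMADs and their ubiquitin ligases 4 of 8 were higher and none lower (median 0.198). The signal carriers SMAD1 (0.35 ± 0.05) and SMAD9 (0.71 ± 0.09) and the ligase SMURF2 (0.31 ± 0.05) rose, while SMAD5 (0.09 ± 0.05) and the shared partner SMAD4 (0.02 ± 0.05) were not called. SMAD7, an inhibitor of BMP and TGF-beta receptors, rose to 52.8 and 49.2 CPM in DKO, against 25.3 and 23.2 CPM in WT (1.07 ± 0.06, edgeR adjusted p = 8.97e-42). SMAD6, the inhibitor more specific to BMP signals, was not called, at 181 and 189 CPM in DKO and 192 and 189 CPM in WT. SMAD1 (adjusted p = 0.054) and SMURF2 (0.071) missed the threshold of edgeR without WT replicate 1.

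Known BMP targets did not move one way. Of 12 tested, 6 were higher and 2 lower (median 0.335). SMAD7 and SMAD9, already counted among the SMADs, are among these 6, and the uncalled SMAD6 is on both lists too. RUNX2, a factor of bone formation, rose to 45.9 and 47.7 CPM in DKO, against 19.3 and 18.9 CPM in WT (1.3 ± 0.06, edgeR adjusted p = 6.64e-50). ATOH8 rose to 1.13 and 1.63 CPM in DKO, against 0.366 and 0.372 CPM in WT (1.89 ± 0.26), but was not called without WT replicate 1 (edgeR adjusted p = 0.0573). BAMBI, a decoy receptor, had a log2 fold change of 0.69 ± 0.09. The ID genes, the classic targets of BMP SMADs, were split. ID2 was higher, with 55.5 and 49.9 CPM in DKO and 43.1 and 43.7 CPM in WT (0.28 ± 0.05). ID1, on chromosome 20, was lower, with 125 and 112 CPM in DKO and 142 and 145 CPM in WT (-0.28 ± 0.05). ID3 was lower too, with 15.8 and 15.2 CPM in DKO and 20.8 and 22.5 CPM in WT (-0.48 ± 0.07, edgeR adjusted p = 3.37e-09). ID4 did not pass the filter. ID1 and ID2 missed the threshold without WT replicate 1 (edgeR adjusted p = 0.094 for ID1 and 0.118 for ID2), without WT replicate 2 (0.0833 and 0.0766) and without a count filter (0.0644 and 0.0741).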

How the data were processed

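Each of the 4 deposited files gives 1 library's raw counts, whole numbers of reads by Ensembl gene ID. Per the submitters' processing notes, STAR 2.7.3a, featureCounts 1.6 and genome build hg38 were used. Libraries were stranded, per the labels' protocols. Gene set version, strand setting in counting and counted feature (exon or gene body) were not given in the sources used here. Reads shared by overlapping genes, or by antisense partners, could therefore not be separated. The labels name no spike-in, and all levels are relative. Of 60656 IDs, 42020 had a symbol and 40214 a unique RefSeq span (GRCh38.p14), which placed genes. IDs without one were left out of the positional counts. Strands and promoter sequences are from RefSeq.

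Genes were tested with edgeR 4.0.16 in R 4.3.3 (quasi-likelihood, TMM, filterByExpr with a minimum count of 10 and a minimum total of 15, group as the only term, Benjamini-Hochberg over 19103 genes). Errors of log2 fold changes are the absolute change over the square root of F, with n = 2 per group, and are too small for genes with few reads. The prior count for log2 CPM was 2. On simulated counts for DKO against WT over 19103 genes, 70% of 50 genes changed 1.25-fold were recovered, 88% at 1.5-fold, 98% at 2-fold and 100% at 3-fold. Of 18607 unchanged genes 7 were called. Every simulated gene had the same spread, the common biological coefficient of variation of 3.46%, and changed genes were drawn only from those above 1 CPM. These rates therefore do not carry over to genes with few reads or a larger spread. Replicates differed by more than sampling noise (chi-square of 4.57 for DKO and 3.98 for WT per degree of freedom), so each counted as its own library.

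The members and lists were chosen with earlier results of these data known. The text names all 10 members, the other tested gene of the window, the 3 called protein-coding genes with the largest change within 2 Mb, up to 4 called genes a list, the ID genes, paralogs of the locus genes and the 5 genes most like BMP4 and most like LINC02331. Genes named beside these (uncalled or untested list members, neighbours at the edge of the window) were chosen after their values were seen. Alternatives were DESeq2 size factors, upper quartile factors, total counts, other count filters, DESeq2 1.42.0, limma voom 3.58.1, a replicate block and each library left out. Figures were drawn with matplotlib 3.10.9.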

Additional observations from a re-analysis of the deposited data

How the results depend on the processing

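LINC02331 and BMP4 kept their direction under all 12 alternatives, with log2 fold changes of 5.03 to 5.34 and 2.26 to 2.3 when each library was left out. The count of flanking genes called higher was 7 with the settings of the report, 6 with no filter beyond 1 read and 4 to 7 with a library left out, and none was called lower in any of these. Their median log2 fold change was 0.33 with upper quartile factors and 0.28 to 0.32 with a library left out. Of the BMP list members, 17 were called higher and 5 lower with the settings of the report. These counts were 20 and 5 with upper quartile factors, and 14 and 4 with no filter beyond 1 read. The BMP list members called ranged from 9 to 18 higher and 4 to 5 lower with a library left out. Genome-wide, 2347 genes were higher and 2469 lower with the DESeq2 Wald test, 1640 and 1655 with no filter beyond 1 read, and 1023 to 3127 and 928 to 3443 with a library left out, and the cause was not tested. With the replicate block, which rests only on shared numbers, 3742 genes were higher and 4078 lower and no call of a named gene changed. The correlation of deviations between same-numbered libraries was -0.0104. The log2 ratio of BMP4 to LINC02331 in DKO was 3.89 per kb of span but -0.65 in plain CPM. Signs turned for the uncalled SAMD4A (0.02 with upper quartile factors, and -0.05 to 0.03 with a library left out), and with a library left out for DDHD1-DT (-0.25 to 0.47) and FERMT3 (-0.02 to 0.21). The named genes compared here are the 57 tested ones of the naming rule above, without BMP4 and LINC02331. Genes chosen after their values were seen are not among them. For these 57, 629 of 674 values stayed on their side of the threshold with their sign. Another 41 lost their call, most of them in fits without a WT replicate. Only 50 of the 57 passed the filter of at least 50 reads in 2 libraries. DESeq2 gave no adjusted p for 3 named genes (ACVRL1, CSF1R and PTGER2), which are left out of these counts. Fits with a library left out take the spread from the group that still has 2.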

Other observations

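Paralogs of the locus genes lie elsewhere. Of 8 tested, none was called higher and 3 were lower (median log2 fold change -0.116), a small list to set beside the 19.0% higher and 21.1% lower of all tested genes. FERMT1, kindlin-1, the epithelial relative of FERMT2, fell to 83.2 and 83 CPM in DKO, against 125 CPM in each WT library (-0.59 ± 0.05, edgeR adjusted p = 5.66e-25), and lies on chromosome 20, where 79.4% of tested genes were lower. FERMT3, the blood cell form, was at 1.77 and 2.06 CPM in DKO and 1.68 and 1.9 CPM in WT and was not called. CNIH3 fell to 26.8 and 26.1 CPM in DKO, against 32.6 and 33.5 CPM in WT (-0.32 ± 0.06), while CNIH2 (0.34 ± 0.24) and CNIH4 (-0.09 ± 0.07) were not called. SAMD4B had 64.7 and 66.1 CPM in DKO and 71.2 and 72 CPM in WT (-0.13 ± 0.05, edgeR adjusted p = 0.0276, and 0.0783 to 0.178 in the 6 alternatives that ended its call). DDHD2 (-0.1 ± 0.05) and GMFG (-0.49 ± 0.31) were not called.

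Other genes of tetrahydrobiopterin metabolism were read beside GCH1. PTS, which makes the second intermediate of the pathway, fell to 40.3 and 40.7 CPM in DKO, against 47.8 and 49.3 CPM in WT (-0.26 ± 0.05, edgeR adjusted p = 2.9e-05). SPR (0.17 ± 0.09) and QDPR (0.02 ± 0.05) were not called, and GCHFR, the regulator of GCH1, had at most 4 reads in any library.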
